A study of Homo sapiens with 6 samples.

Results

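VEGF and angiopoietin ligands and their receptors were examined in U87-2M1 glioma cells that carried a decoy for miR-10b, against the same cells with a control decoy. The 10 genes were taken by name: the ligands VEGFA, VEGFB, VEGFC, PGF, ANGPT1 and ANGPT2, and the receptors FLT1, NRP1, NRP2 and TEK. They make up 10 of the 19775 genes that probe sets with a single gene symbol name on the array, with 38 of 41091 such probe sets. U87-2M1 is an invasive subline of the U87 human glioma cell line that was passed through a lung metastasis assay in animals. Passage 4 cells, grown in hypoxia, were transduced with a baculoviral vector, which carries genes into mammalian cells. The control decoy group had 3 arrays with a baculoviral control decoy vector, and the miR-10b decoy group had 3 arrays with the vector carrying a miR-10b decoy, a transcript meant to bind that microRNA. Both groups thus share the line, the hypoxic culture and the transduction, there was no untransduced sample, and a single line stands for each group. Whether replicates came from different cultures is not stated in the labels, and p-values then cover only the spread from array to array, which can be technical. Binding of miR-10b by the decoy was not measured on these arrays.

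VEGF ligands act on receptor tyrosine kinases of the endothelium. VEGFA binds FLT1 and KDR, VEGFB and PGF bind FLT1, and VEGFC binds FLT4 and KDR and drives growth of lymphatic vessels. The neuropilins NRP1 and NRP2 are co-receptors that hold VEGF ligands or class 3 semaphorins without a kinase of their own. Angiopoietins act on the TEK receptor (also called TIE2), with ANGPT1 as the activating ligand that steadies vessels and ANGPT2 as a partial antagonist that loosens them. In glioma, hypoxic tumour cells are a main source of VEGFA, and endothelial cells carry most of its receptors.

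NRP2 was higher and ANGPT1 and TEK were lower in cells with the miR-10b decoy. NRP2 was 1.77-fold higher, ANGPT1 2.14-fold lower and TEK 1.47-fold lower (3 arrays per group), all on the log2(signal + 7) scale described below. The other 7 members did not pass the test, among them every VEGF ligand, each taken by its brightest probe set. A dimmer probe set of PGF was lower in a fit of every probe set by itself. All 10 members lay above the filter on low signal. Thus 3 of 10 members were called, and 33.9% of all 13842 genes tested were called, a share close to that of the members. The arrays of the groups did not overlap for 5 of the 10 members and for 46.3% of all genes. In the higher direction 1 member was called, against 16.6% of all genes, and in the lower direction 2, against 17.3%. The median log2 difference was -0.01 over the members and -0.02 over all genes tested.

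**Figure D1:**
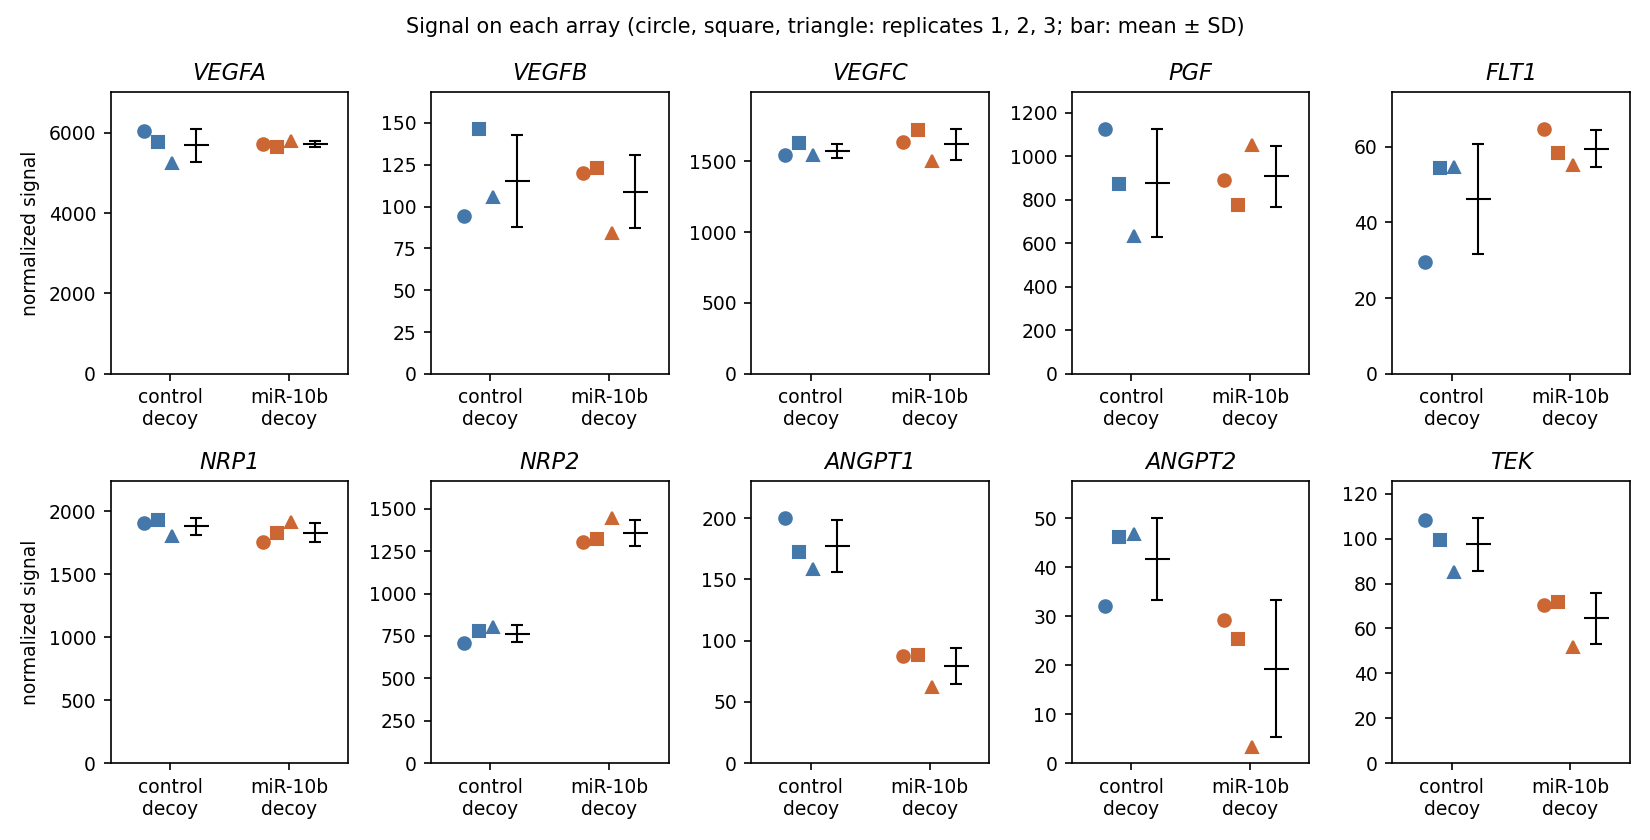
Quantile-normalized signal of each member on each array, on a linear axis that starts at 0, with control decoy arrays in blue and miR-10b decoy arrays in orange; circle, square and triangle are replicates 1, 2 and 3, and the black bar is the mean ± SD (n = 3). The NRP2 arrays with the miR-10b decoy lie between 1305 and 1446, above control arrays between 706 and 800, while those of ANGPT1 and TEK lie below all their control arrays and those of VEGFA, VEGFB, VEGFC, PGF and NRP1 overlap.

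The arrays did not start on one scale. Control replicate 3 was the brightest as deposited, with a trimmed mean signal (2% left out at either end) of 192, where the other 5 arrays had 155 to 163. Signals below are therefore those after quantile normalization, which gives every array the same distribution, and a difference is the miR-10b decoy group minus the control decoy group in log2(signal + 7), with its standard error (SE). The offset of 7 makes the changes of dim genes look smaller than they are. Adjusted p is from limma after Benjamini-Hochberg adjustment over all genes tested, and a gene is called higher or lower where it is under 0.05. After quantile normalization 2301 genes were higher and 2391 lower. As deposited 1083 (7.82%) were higher and 2532 (18.3%) lower, and with array medians centred 2856 (20.6%) and 1738 (12.6%), and NRP2, ANGPT1 and TEK were called the same way on all 3 scales. The median log2 difference of all genes was -0.14 as deposited. The ratio of 3' to 5' probe set signal for actin, which rises as RNA is degraded, had a mean of 5.73 ± 0.47 on control arrays and of 8.54 ± 1.77 on miR-10b decoy arrays (SD, n = 3). The exact permutation p of that ratio was 0.1, the smallest that 3 arrays against 3 allow. The same ratio for GAPDH overlapped between the groups, at 0.931 to 0.967 on control arrays and 0.934 to 0.948 on miR-10b decoy arrays. The actin ratio thus differed between the same groups of arrays that are compared below, while the GAPDH ratio overlapped. The part of RNA quality in the results was not tested.

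Among the VEGF ligands, VEGFA, the chief growth factor of blood vessels, gave signals of 6042, 5775 and 5240 on the control arrays and 5725, 5637 and 5791 on the miR-10b decoy arrays. The decoy arrays all lay inside the range of the controls. The log2 difference was 0.01 (SE 0.05), with a 95% interval from -0.10 to 0.12 (adjusted p = 0.899). In the values as deposited all 3 decoy arrays lay under the controls, at 5431 to 5455 against 5746 to 6414, as those of 29.3% of all genes did, but the log2 difference there was -0.13, close to the shift of all genes on that scale, and did not pass (adjusted p = 0.470). The other 3 VEGFA probe sets had log2 differences from 0.01 to 0.20, and 0 of them passed.

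VEGFC, the lymphatic growth factor, had signals of 1539, 1630 and 1546 with the control decoy and 1637, 1717 and 1500 with the miR-10b decoy. The groups overlapped, and the log2 difference of 0.04 had a 95% interval from -0.09 to 0.17 (adjusted p = 0.657). VEGFB, a ligand of FLT1, had more scatter. Its signals were 94.1, 147 and 106 in controls and 120, 123 and 84.1 with the miR-10b decoy. The interval of its log2 difference, from -0.47 to 0.32 around -0.07, leaves more room than those of VEGFA and VEGFC (adjusted p = 0.792). Each of the 2 genes is measured by 1 probe set.

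PGF, placental growth factor, had 2 probe sets, of which only the dimmer passed the test. The brighter, whose identifier ends in _x_at, a suffix that marks probes which may also bind other transcripts, gave 1127, 873 and 633 on the control arrays and 891, 779 and 1055 on the miR-10b decoy arrays. These overlap, and the log2 difference was 0.08 (95% interval -0.29 to 0.44, adjusted p = 0.762). The coefficient of variation among controls was 28.2%, against 7.18% for VEGFA. The dimmer gave 387, 368 and 350 in controls and 270, 299 and 223 with the miR-10b decoy, so its groups did not overlap. Its log2 difference was -0.48 (SE 0.11), with adjusted p = 0.00746 in a fit that took every probe set by itself, where 12.6% of 28764 probe sets were lower. It also passed in the values as deposited (adjusted p = 0.00491) and with array medians centred (adjusted p = 0.019). The log2 ratio of the dimmer to the brighter was -1.20 ± 0.34 in controls and -1.76 ± 0.43 with the miR-10b decoy (SD, n = 3), a difference that an exact two-sided permutation test put at p = 0.2. The ratios of the groups overlapped, so a difference between the 2 probe sets was not shown.

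FLT1 encodes a VEGF receptor whose soluble form traps ligand, and it has been reported as a target of miR-10 in endothelial cells. Its signals were 29.4, 54.4 and 54.7 with the control decoy and 64.7, 58.3 and 55.2 with the miR-10b decoy. The decoy arrays all lay above the controls after normalization, by a narrow margin, and the groups overlapped in the values as deposited. The log2 difference of 0.36 (SE 0.22) did not pass, with a 95% interval from -0.12 to 0.84 (adjusted p = 0.240). Without control replicate 1, the lowest of the 6 arrays, it was 0.11. The other 5 FLT1 probe sets lay under the filter level, a signal of 14.2, and were not tested. KDR, the main signalling receptor of VEGFA, had a single probe set with signals from 23.7 to 50.6 in controls and from 16.9 to 46.7 with the miR-10b decoy. FLT4, the receptor of VEGFC, had 24.8 to 41.6 and 40.6 to 73.5. Neither passed, with log2 differences of -0.09 (SE 0.33) for KDR and 0.50 (SE 0.25) for FLT4 (adjusted p = 0.866 and 0.153). VEGFD was not named here because its probe set carries several gene symbols.

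NRP2, the co-receptor best known for VEGFC and for the semaphorin SEMA3F, had the smallest p of the members. Signals of its brightest probe set were 706, 781 and 800 in controls and 1305, 1321 and 1446 with the miR-10b decoy. Every decoy array was thus far above every control array, in a comparison where 22.4% of all genes tested had their decoy arrays above all controls. The group means were 762 ± 50.1 and 1357 ± 76.8 (SD, n = 3), a log2 difference of 0.83 (SE 0.07, 95% interval 0.68 to 0.98, adjusted p = 6.2e-06). The call stood under each of the 18 other settings tried, with log2 differences from 0.42 to 0.90 and adjusted p up to 0.00991. The lowest of these came with the mean of all its probe sets.

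Of the 11 NRP2 probe sets, each tested by itself, 5 were higher and 6 did not pass; 12.2% of all probe sets were higher. The one with the largest difference went from 312 ± 21.5 to 601 ± 20.7 (SD, n = 3), a log2 difference of 0.93 (SE 0.08). Besides the brightest, the other higher ones had log2 differences of 0.73, 0.55 and 0.52. In contrast a probe set of middling signal gave 175, 141 and 161 in controls and 160, 182 and 177 with the miR-10b decoy, and its log2 difference of 0.12 did not pass (adjusted p = 0.504). The log2 ratio of the brightest probe set to that one was 2.22 ± 0.23 in controls and 2.92 ± 0.09 with the miR-10b decoy (SD, n = 3). All decoy arrays lay above all controls in that ratio (exact two-sided permutation p = 0.1, the smallest possible here). The pair was chosen after its values were seen, and which transcript forms each probe set measures is not given in the sources used here. After normalization none of the 11 had a negative difference. As deposited, 4 NRP2 probe sets were higher and 3 had negative differences, from -0.15 to -0.02, that did not pass.

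**Figure D2:**
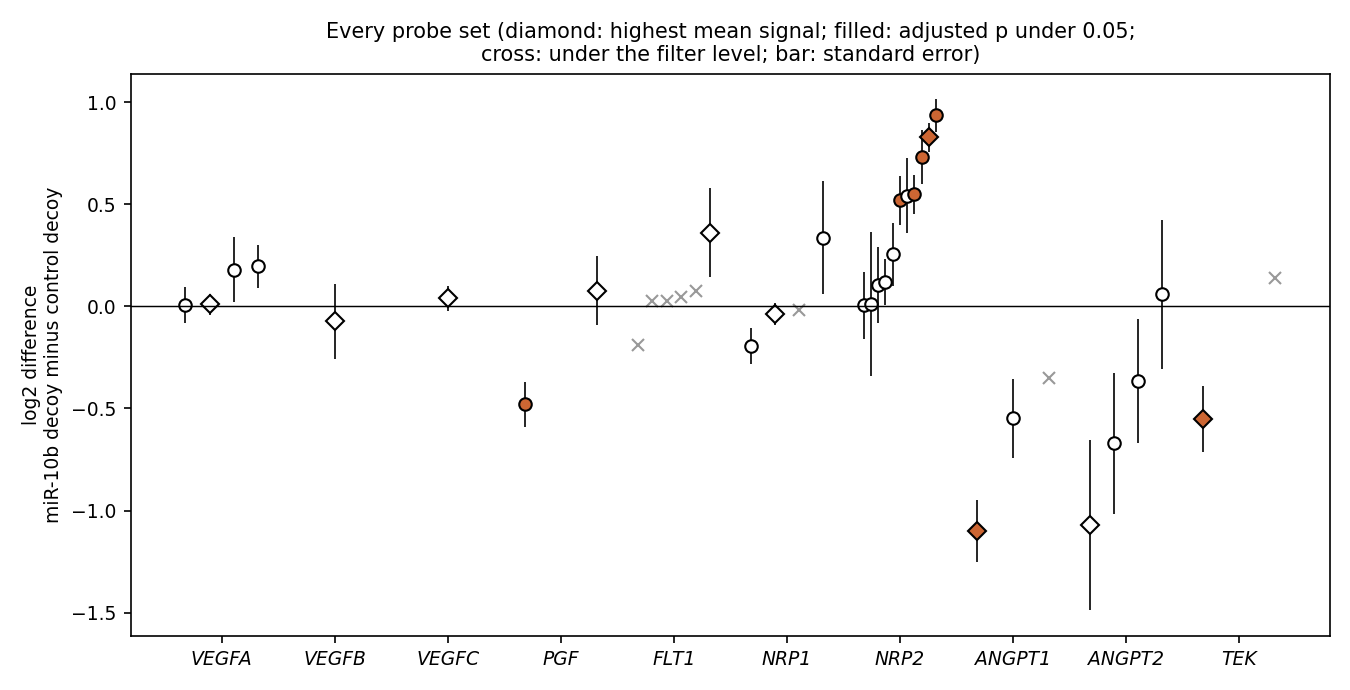
Log2 difference (miR-10b decoy minus control decoy) of all 38 probe sets of the members, grouped by gene; diamonds are the brightest probe set of each gene, filled symbols had adjusted p under 0.05, crosses lay under the filter level, and bars are 1 standard error. NRP2 probe sets run from 0.00 to 0.93, 5 of them called higher, while those of ANGPT1 that passed the filter are at -1.10 and -0.55 and the 2 of PGF at -0.48 and 0.08.

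NRP1, the other neuropilin and a co-receptor of VEGFA, did not pass. It had signals of 1908, 1929 and 1806 with the control decoy and 1755, 1828 and 1912 with the miR-10b decoy, which overlap. The log2 difference was -0.04 (SE 0.05, 95% interval -0.16 to 0.08, adjusted p = 0.625), an interval that lies wholly below that of NRP2. As deposited, its decoy arrays lay under all controls, at 1662 to 1795 against 1833 to 2167, without passing (log2 difference -0.17). Of its other 3 probe sets, 1 lay under the filter level and was not tested, and neither of the others passed (log2 differences of -0.19 and 0.34).

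ANGPT1, the activating ligand of TEK, gave signals of 200, 173 and 159 in controls and 87.4, 88.5 and 62.4 with the miR-10b decoy. No decoy array came near a control array, and 24.0% of all genes tested had decoy arrays below all controls. The means were 177 ± 21.1 and 79.4 ± 14.7 (SD, n = 3), a log2 difference of -1.10 (SE 0.15, 95% interval -1.43 to -0.77, adjusted p = 1.98e-04). It kept passing in each of the 18 other settings, with differences from -1.21 to -0.67 and adjusted p up to 0.030. A dimmer probe set gave 73.7, 52.9 and 49.0 in controls and 37.9, 34.0 and 39.9 with the miR-10b decoy. Its groups did not overlap either, but the log2 difference of -0.55 missed the threshold (adjusted p = 0.058) and passed as deposited (adjusted p = 0.022). The third ANGPT1 probe set lay under the filter level.

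ANGPT2, the partial antagonist, was dim and its size was unsure. Its signals were 31.98, 46.2 and 46.7 in controls and 29.2, 25.3 and 3.29 with the miR-10b decoy. The groups did not overlap, yet decoy replicate 1 was close to control replicate 1, and decoy replicate 3 was the only array of any member under the filter level. The log2 difference of -1.07 (SE 0.42, 95% interval -1.99 to -0.15) missed the threshold after adjustment (adjusted p = 0.070). Without decoy replicate 3 it was -0.49 (adjusted p = 0.179), and without decoy replicate 1 it was -1.41 and passed (adjusted p = 0.036). It also passed in the values as deposited (-1.22, adjusted p = 0.00299) and with an offset of 32 (-0.56, adjusted p = 0.0497). The fit as deposited gave a gene's own scatter less weight (133 prior degrees of freedom, against 7.62 in the main fit). In 14 of the 17 other settings in which ANGPT2 was tested it did not pass, with adjusted p up to 0.279 with per-gene variances. Of the other 3 ANGPT2 probe sets 0 passed, with log2 differences from -0.67 to 0.06.

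TEK, the angiopoietin receptor, had signals of 108, 99.2 and 85.0 with the control decoy and 70.5, 71.6 and 51.6 with the miR-10b decoy, so that the decoy arrays all lay below the controls. The log2 difference was -0.55 (SE 0.16, 95% interval -0.91 to -0.20, adjusted p = 0.021). This call was less firm than those of NRP2 and ANGPT1: it ended when control replicate 1 was left out (adjusted p = 0.078), when control replicate 2 was (adjusted p = 0.061) and when decoy replicate 3 was (adjusted p = 0.076), with no filter (adjusted p = 0.062) and with per-gene variances (adjusted p = 0.096). It also ended with the mean of both probe sets, where the log2 difference was -0.21, the second TEK probe set lying under the filter level with mean signals of 2.99 in controls and 4.06 with the miR-10b decoy. TIE1, the partner receptor of TEK, and ANGPT4, a further ligand, lay under the filter level on all 6 arrays.

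**Figure D3:**
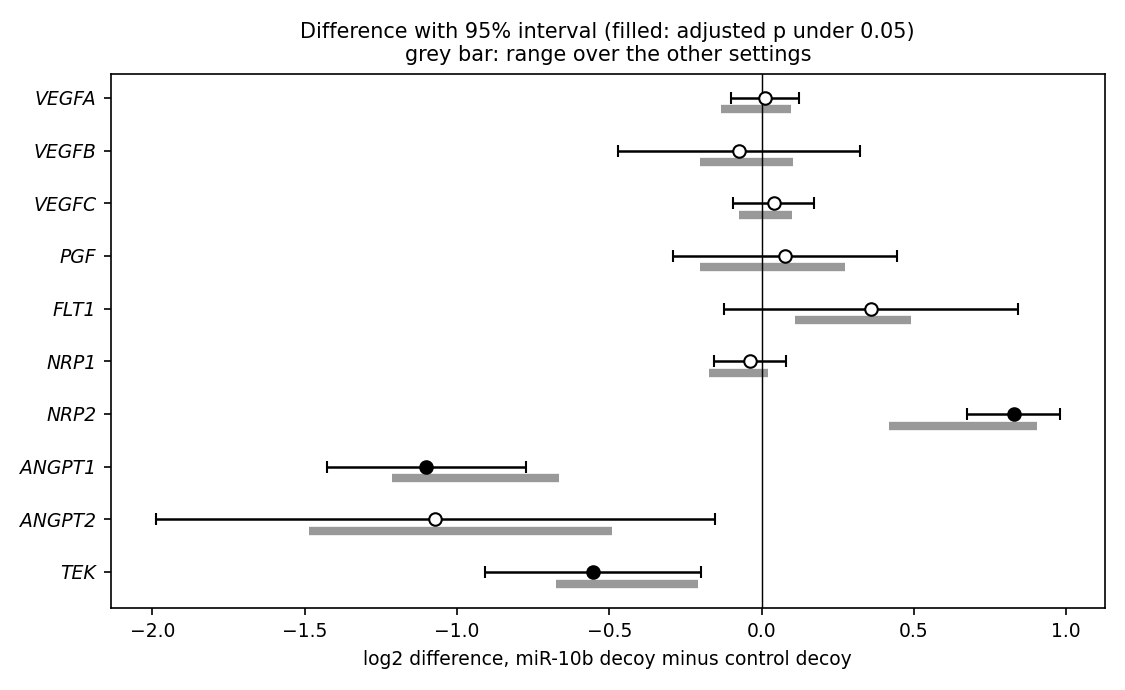
Log2 difference of each member (miR-10b decoy minus control decoy) with its 95% interval, from the probe set with the highest mean signal; filled points had adjusted p under 0.05, and the grey bar spans the values under the other settings in which the gene was tested. NRP2 (0.83), ANGPT1 (-1.10) and TEK (-0.55) are filled, and the intervals of VEGFA, VEGFB, VEGFC, PGF, FLT1 and NRP1 include 0.

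NRP2 and TEK were called in opposite directions, and the sequences before their start sites are shown here for comparison. A single gene stands for each direction, and a link between sequence and direction was not tested. ANGPT1, the other lower member and the firmer call, was not examined. RefSeq promoter windows (GRCh38.p14; 250 bases before to 50 after a start) were examined for 6 members. ANGPT1 and ANGPT2 lie on a chromosome that was left out of the search of members but not of the share over all windows. The stretches printed are the 250 bases before the start, both on the plus strand, for NRP2 at chr2:205682251-205682500 and for the more upstream of 2 TEK starts at chr9:27108975-27109224. Capitals mark GGGCGG or its reverse complement, the GC box bound by SP1-type factors.
NRP2: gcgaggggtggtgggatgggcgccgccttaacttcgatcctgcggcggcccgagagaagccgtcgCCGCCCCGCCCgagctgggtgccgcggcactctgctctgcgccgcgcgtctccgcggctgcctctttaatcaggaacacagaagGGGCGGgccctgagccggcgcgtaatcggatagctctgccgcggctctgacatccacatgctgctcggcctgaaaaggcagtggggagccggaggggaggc
TEK: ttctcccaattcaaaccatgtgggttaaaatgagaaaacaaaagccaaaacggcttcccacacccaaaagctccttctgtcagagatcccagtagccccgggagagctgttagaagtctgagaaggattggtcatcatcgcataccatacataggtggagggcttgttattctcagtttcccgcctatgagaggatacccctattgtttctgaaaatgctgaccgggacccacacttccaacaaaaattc
The NRP2 window was 70.0% G or C and that of TEK 48.0%, against a median of 58.7% over 35114 windows. NRP2 held 3 GGGCGG matches, 2 of which share a base, and the TEK windows held 0. The motif was also found in FLT1, PGF, VEGFB and VEGFC, none of them called. Thus 5 of the 6 members examined held it, and 45.0% of all windows did. Here and for the motifs below, a member counts where any of its windows held the motif, while the share is of single windows. The hypoxia response core, searched as ACGTG and GCGTG on both strands because the cells were grown in hypoxia, was not found in these letters for NRP2 or TEK. ACGTG was found in 0 of the 6 members examined and in 21.4% of all windows. GCGTG was found in 4 (FLT1, PGF, VEGFB and VEGFC) and in 36.5% of all windows. These are matches of letters only, and no binding was measured.

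Genes around the neuropilins went both ways. Of 12 class 3 semaphorins and plexins, 9 passed the filter, 2 were higher, 2 were lower and 5 did not pass, where 33.9% of all genes were called. PLXNA2, a plexin that signals for neuropilin-bound semaphorins, went from 138 ± 14.2 to 78.1 ± 6.03 (SD, n = 3), a log2 difference of -0.77 (SE 0.13, adjusted p = 7.6e-04). SEMA3A, the classic NRP1 ligand, was lower at -0.43 (adjusted p = 0.00997), with 156, 147 and 151 in controls and 112, 117 and 101 with the miR-10b decoy. SEMA3C, which binds both neuropilins, was higher at 0.55 (adjusted p = 0.00623), and PLXNA1 at 0.37 (adjusted p = 0.006); as deposited PLXNA1 missed the threshold (adjusted p = 0.122). The list median was -0.17, against -0.02 over all genes.

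The hypoxia pathway, which induces VEGFA, had more genes lower than higher. Of 15 tested regulators and targets, 2 were higher, 6 lower and 7 did not pass, with a list median of -0.14; over all genes 16.6% were higher and 17.3% lower. BNIP3, a mitophagy receptor induced by hypoxia, went from 5179 ± 155 to 3660 ± 94.2 (log2 difference -0.50), and ANKRD37 from 572 ± 22.3 to 366 ± 36.5 (-0.64; SD, n = 3 in each). PDK1, which holds pyruvate back from mitochondria, was lower at -0.52. The vasodilator peptide ADM, another hypoxia target and itself angiogenic, was higher, from 3339 ± 337 to 5053 ± 334 (SD, n = 3), a log2 difference of 0.60. Adjusted p for these 4 lay between 7.0e-06 and 2.0e-04. The other lower genes were NDRG1 (-0.59), PGK1 (-0.18) and LDHA (-0.14), of which PGK1 and LDHA did not pass as deposited. Besides ADM, the only higher gene was HIF1AN, an inhibitor of HIF1A and not a target (0.36), which did not pass as deposited (adjusted p = 0.141). HIF1A, the oxygen-controlled factor itself, had a log2 difference of 0.00 (SE 0.05, adjusted p = 0.964). As deposited 1 of the list was higher and 4 lower, and with array medians centred 4 and 5.

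Downstream signalling genes of the VEGF receptors and TEK were balanced, with 4 higher, 4 lower and 13 not passing of 21 tested (33.9% of all genes were called) and a list median of 0.00. The kinase PRKCA went from 2687 ± 62.6 to 1964 ± 66.8 (SD, n = 3; log2 difference -0.45, adjusted p = 4.1e-05), and the small GTPase CDC42 was lower at -0.45. The kinase SRC was higher at 0.55 (adjusted p = 0.00293), and HSPB1, a heat shock protein phosphorylated after VEGF, at 0.29 (adjusted p = 0.00378). This balance rested on the scaling: 1 was higher and 4 lower as deposited, where HSPB1 did not pass (adjusted p = 0.316), and 7 were higher and 3 lower with array medians centred. Of 10 tested matrix proteins that bind, release or oppose VEGF, 2 were higher and 3 lower, and the lower ones were THBS1 (-1.003), CCN2 (-0.85) and SPARC (-0.63). The higher ones, the protease ADAMTS1 (0.23) and the glypican GPC1 (0.29), did not pass as deposited, where 0 were higher. The only angiopoietin-like gene that passed the filter, ANGPTL4, had a log2 difference of 0.08 (adjusted p = 0.773).

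**Figure D4:**
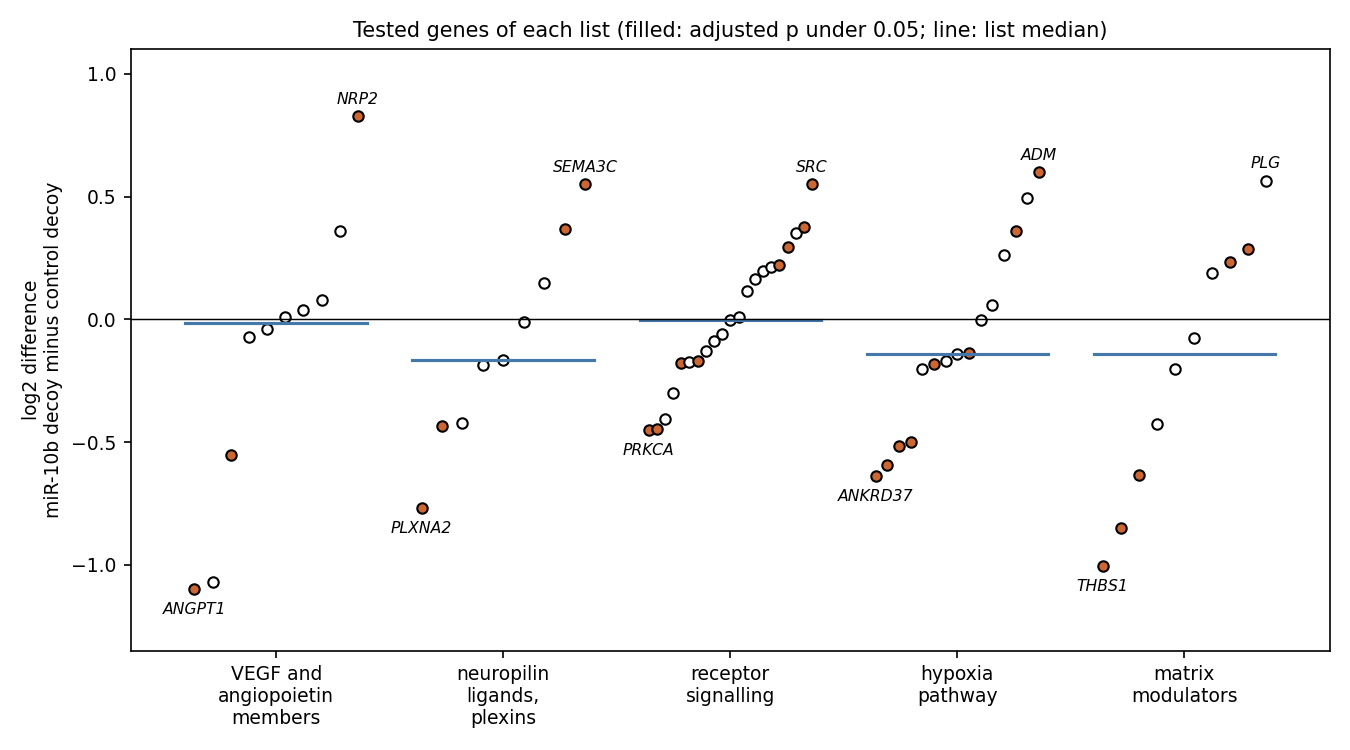
Log2 difference (miR-10b decoy minus control decoy) of each gene past the filter, for the 10 members and 4 lists of neighbouring pathways; filled points had adjusted p under 0.05, the blue line is the list median, and the lowest and highest gene of each list is named. Every list holds called genes on both sides of 0, and the list medians lie between -0.17 and 0.00.

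The labelled cell type was checked against markers. Of all genes tested, 33.9% were called, 16.6% higher and 17.3% lower, the shares to set beside each count in this paragraph. All 10 markers of mesenchymal glioma lines passed the filter, with 1 higher, 3 lower and 6 not passing. SPARC (log2 difference -0.63), CAV1 (-0.43) and NES (-0.38) were lower, and ANXA1 was higher (0.18) but did not pass as deposited (adjusted p = 0.882). The other 6, VIM, CD44 and TNC among them, had log2 differences from -0.09 to 0.01. Of 12 endothelial markers, 3 passed the filter and 8, CDH5, VWF and TIE1 among them, lay under its level on all 6 arrays. Their summed signal was 229 to 294 in controls and 196 to 241 with the miR-10b decoy. PECAM1 alone of them was lower, from 142 ± 5.88 to 106 ± 0.22 (SD, n = 3), a log2 difference of -0.40 (adjusted p = 0.014), on the same arrays as TEK. Of 6 pericyte markers 4 passed the filter, with 1 higher and 0 lower. The count higher was 0 as deposited, 0 with trimmed mean scaling and 3 with array medians centred. The higher one was the dim ABCC9, at 9.52 to 30.7 in controls and 35.3 to 51.0 with the miR-10b decoy (adjusted p = 0.043). The summed signal of all 6, including those that did not pass the filter, was 364 to 433 in controls and 484 to 500 with the miR-10b decoy. Of 7 microglia and macrophage markers 2 passed the filter, and neither was called. In bulk RNA, fewer cells of a type and less RNA per cell cannot be told apart.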

How the data were processed

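Total RNA (0.25 µg per array) was extracted with TRIzol and labelled with biotin, per the labels' protocols. The authors deposited linear signal intensities of 54675 probe sets per array; MAS5 is named in the submitters' processing notes, with no version or scaling target in the sources at hand. The number of arrays limits the precision.

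Gene symbols came from the platform annotation: 41097 probe sets had 1 symbol, 1801 several and 11777 none, and 41037 of the 41091 used matched a RefSeq gene table (GRCh38.p14) by Entrez identifier. Signals were turned into log2(signal + 7) and quantile-normalized. The probe set with the highest mean deposited signal stood for a gene, and the lowest 30 percent of genes by mean log2 signal (a signal under 14.2) were not tested. The groups were compared over 13842 genes with limma 3.58.1 in R 4.3.3 (lmFit, eBayes with an intensity trend, two-sided, Benjamini-Hochberg, threshold 0.05; 7.62 prior and 4 residual degrees of freedom). Alternatives were other scalings, offsets, filters, probe set rules and variance models, a replicate block, and each array left out. The script was tested on simulated data.

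The members, lists and settings were chosen with earlier results of these data known. Named were all 10 members, every measured gene of the remaining family list, and up to 4 genes with the smallest p of other lists; further ones were chosen after their values were seen.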

Additional observations from a re-analysis of the deposited data

How the results depend on the processing

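Over 18 other settings the call of 1 member higher, NRP2, stood in each. The count of members lower was 2 and went to 1 with no filter, with the mean of all probe sets and with per-gene variances, and ranged from 1 to 3 when single arrays were left out; in each of these TEK or ANGPT2 was the gene that moved. Of all genes, 2301 were higher and 2391 lower. Higher genes numbered 1083 as deposited; with the mean of all probe sets 1481 were higher and 1570 lower, and with per-gene variances 1446 and 1378. Of 176 member values under these settings, 154 kept their direction and side of the threshold, 6 (all of TEK) no longer passed and 3 (all of ANGPT2) came to pass. The remaining 13 changed sign, all of members that did not pass in either setting. Settings that changed only the filter, the variance model or the block left the log2 difference as it was, so its direction could not change there. The changed signs were, for VEGFA, -0.13 as deposited and -0.023 with trimmed mean scaling; for VEGFC, -0.074 as deposited; for NRP1, 0.0031 with medians centred and 0.022 with the mean of all probe sets; and for PGF, -0.0066 as deposited and -0.20 with the mean of all probe sets. With single arrays left out VEGFA ranged from -0.048 to 0.056, VEGFB from -0.20 to 0.10, VEGFC from -0.0030 to 0.093 and PGF from -0.14 to 0.28. Among other probe sets that were tested, those of the opposite sign were 1 of NRP1 (0.34), 1 of ANGPT2 (0.058) and 1 of PGF (-0.48); among those under the filter level and not tested, 1 of FLT1 (-0.19) and 1 of TEK (0.14). The cause of these moves was not tested.

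The titles give both groups replicate numbers 1 to 3, and whether same-numbered arrays were paired is not stated. Deviations of same-numbered arrays correlated at 0.03, -0.03 and -0.01. These values show no shared effect of the number but cannot exclude a pairing. With the replicate block 2217 genes were higher and 2310 lower, with 1 member higher and 2 lower. Signals near the filter level, as for ANGPT2 and most FLT1 probe sets, limit what can be seen.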
